A study of Mus musculus with 6 samples.

Results

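NF-kappaB is a family of transcription factors that carry T cell receptor and TNF receptor signals to the nucleus, and the IkappaB proteins are their inhibitors and cofactors. Classical IkappaB proteins hold NF-kappaB dimers in the cytoplasm until an IkappaB kinase marks them for destruction, while atypical IkappaB proteins act in the nucleus on dimers already bound to DNA. In T cells this system drives survival, proliferation and cytokine genes after activation, and several of its inhibitors are themselves induced by NF-kappaB. The messenger RNA of 10 genes of this system was examined. These comprised 5 subunits (Rel, Rela, Relb, Nfkb1 and Nfkb2) and 5 IkappaB genes (Nfkbia, Nfkbib, Nfkbie, Nfkbid and Nfkbiz). They were chosen by symbol from the 47729 genes in each deposited table, each symbol matched 1 row, and all 10 passed the minimum level of a mean of 1 TPM (transcripts per 1000000) over the libraries.

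The libraries came from activated CD8+ T cells of mouse spleen, 3 with vehicle and 3 with 2 µM blebbistatin, both for 24 h. Blebbistatin inhibits the contractile motor myosin II. The deposited vehicle values are tagged pbs, and the labels do not describe the vehicle. Strain, age, the mode of activation and whether replicates were separate animals or cultures are also not stated in the labels. The p-values therefore measure the spread between these libraries, which may be technical. The question of the series, per its title, was the effect of a cytoskeletal drug on these cells. Each library held an implied 18466219 to 19929460 fragments.

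The markers of the labelled cell type were present. The summed level of 6 CD8 T cell genes was 2772 to 2782 TPM with vehicle and 2812 to 3060 TPM with blebbistatin, and Cd4 stayed under 1 TPM in every library. Marker genes of platelets and B cells differed between the groups. The summed level of 5 platelet markers was 48.1 to 57.6 TPM with vehicle and 106 to 124 TPM with blebbistatin, with 3 of them called higher, and that of 6 B cell markers was 18.7 to 23.0 against 33.3 to 40.1 TPM, with 1 called higher. Ms4a1 and Cd22, which define B cells, were under 1 TPM in every library, and the sum of 6 myeloid markers was 6.6 to 9.57 against 11 to 12.7 TPM, with 0 called by limma and 1, Cd68, at an unadjusted p under 0.05. The part of these cells in the results below was not tested. In bulk RNA, fewer cells of a type and less RNA per cell cannot be told apart. The blebbistatin libraries were spread along the first principal component, at 30.5, 0.227 and 14.5 for replicates 1, 2 and 3, with the vehicle libraries between -16.4 and -13.4.

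Because several of these genes are themselves known targets of NF-kappaB, their promoters were searched for kappaB motifs. Promoters from RefSeq (GRCm38.p6), each covering 250 bases before to 50 bases after a start site, were found for 7 of the 10 genes, in 11 windows. Relb, Nfkb1 and Nfkbiz had no entry. A loose kappaB motif, GGGNNNNNCC on either strand, was present in 10 of the 11 windows and in 50.8% of all 32851 promoter windows. A narrower form contained within it, GGGNNTTNCC, was present on either strand in windows of 4 of the 7 genes (Rel, Nfkb2, Nfkbia and Nfkbid), against 5.48% of all 27025 genes. The 120 bases before the 5′-most start site are shown for the 4 genes, with the stretch by a second start site that holds the match of Nfkbid. Capitals mark matches to the narrower motif, and overlapping matches run together.
Rel, chr11:23770970-23771089, minus strand: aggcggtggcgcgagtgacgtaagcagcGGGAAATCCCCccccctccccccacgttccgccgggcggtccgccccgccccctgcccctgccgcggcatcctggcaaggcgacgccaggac
Nfkb2, chr19:46304617-46304736, plus strand: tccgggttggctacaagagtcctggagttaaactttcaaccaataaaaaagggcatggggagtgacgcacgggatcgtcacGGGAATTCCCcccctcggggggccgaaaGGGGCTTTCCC
Nfkbia, chr12:55492648-55492767, minus strand: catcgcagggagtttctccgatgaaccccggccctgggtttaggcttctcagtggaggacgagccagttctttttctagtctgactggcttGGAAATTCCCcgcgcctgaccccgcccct
Nfkbid, chr7:30421611-30421730, plus strand: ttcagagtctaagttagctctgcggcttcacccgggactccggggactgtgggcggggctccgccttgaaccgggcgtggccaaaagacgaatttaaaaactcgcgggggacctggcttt
Nfkbid, before a second start site, chr7:30422170-30422199, plus strand: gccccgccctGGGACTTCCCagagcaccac

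The windows differed in where the match lay. In Nfkbia it began 29 bases before the start site, in Nfkb2 39 and 11 bases before it, and in Rel 92 bases before it. Nfkb2 had a further match, GGGACTTTCC, which its other two windows share, 10 bases after the second start site and 225 bases before the third. The 5′-most Nfkbid start site, which gives the gene its annotated left end, had no match to the narrower motif in its 300 bases, and the match of Nfkbid began 226 bases before a second start site inside the gene. A match is a description of the letters, and binding was not measured here.

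Of the 10 genes, Nfkbid was the one called at an adjusted p under 0.05 by limma, and it was lower with blebbistatin. It encodes an atypical nuclear IkappaB protein (IkappaBNS), known in T cells for binding NF-kappaB subunits in the nucleus and for a part in cytokine gene control. Its level was 27.9, 27.8 and 25.5 TPM in vehicle 1, 2 and 3 and 15.4, 18.6 and 16.8 TPM in blebbistatin 1, 2 and 3. The highest blebbistatin library therefore lay below the lowest vehicle library. The group means were 27.1 ± 1.34 and 16.9 ± 1.59 TPM (mean ± SD of the 3 libraries, also below), and the mean fell by 37.4%. The log2 fold change on the log2(TPM + 1) scale, which slightly understates changes, was -0.65 (SE 0.09, 95% interval -0.85 to -0.44), with an adjusted p of 0.0247 by limma with Benjamini-Hochberg over 13372 genes.

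**Figure D1:**
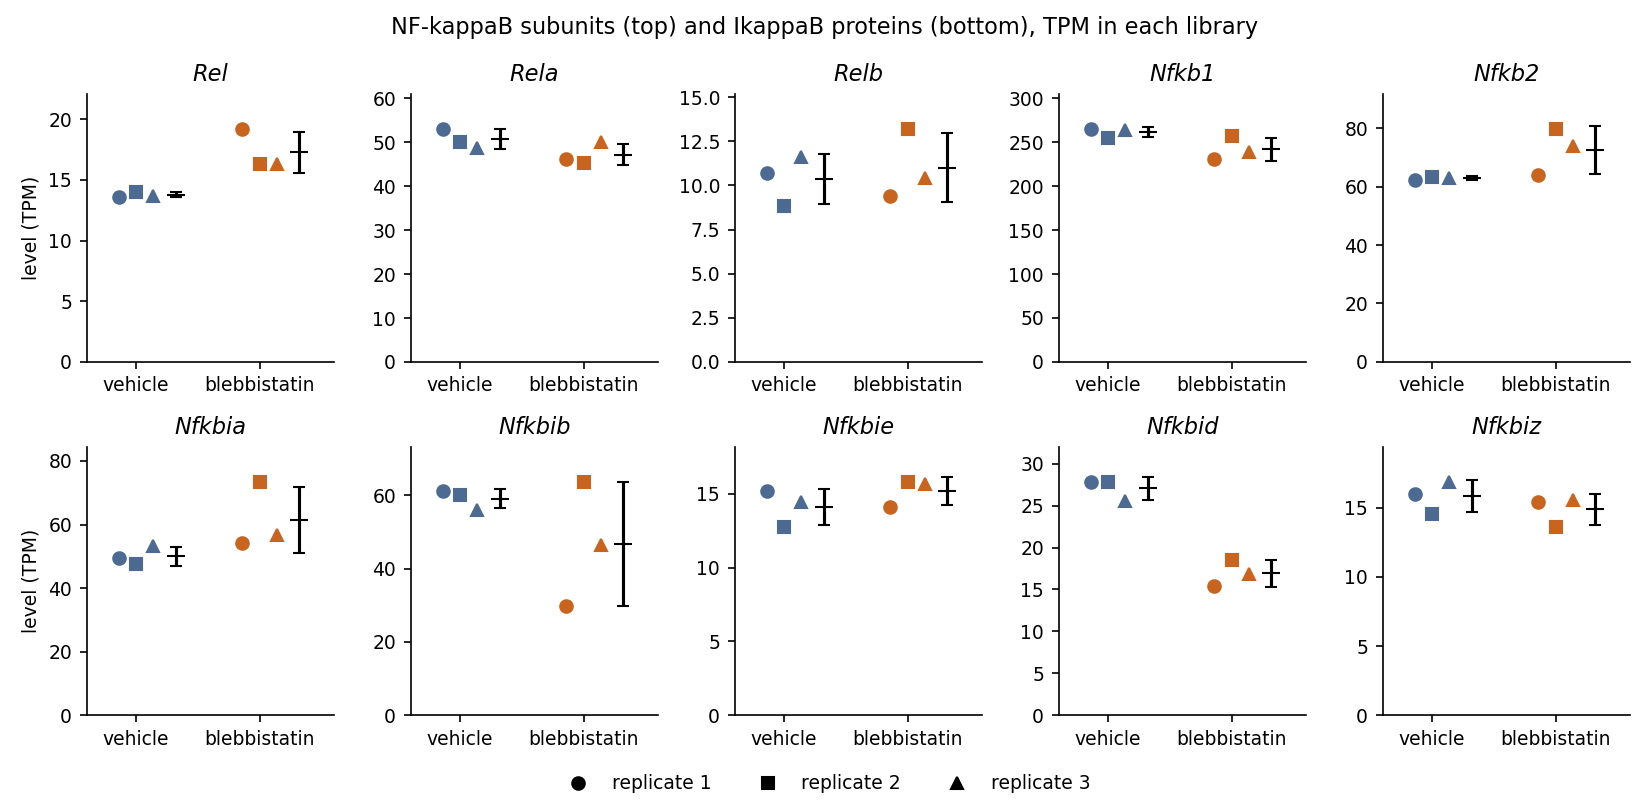
Level in TPM (vertical axes, from 0) of each NF-kappaB subunit and IkappaB gene in the 3 vehicle libraries (blue) and the 3 blebbistatin libraries (orange). Symbols mark replicate numbers and the black bars the group mean and SD. Nfkbid lay between 25.5 and 27.9 TPM with vehicle and between 15.4 and 18.6 TPM with blebbistatin, while the Nfkbib values with blebbistatin ran from 29.8 to 63.7 TPM.

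That fall is 1 call among 10 members, beside a background of 1.82% of all tested genes called, 1.4% higher and 0.426% lower. Over all genes 244 were called, 76.6% of them higher, or 66.0% of 197 after median-ratio scaling. Without vehicle 1, 2 or 3 that count was 13, 11 and 6, and without blebbistatin 1, 2 or 3 it was 120, 1092 and 3. The groups did not overlap in 4 of the 10 members (Rel, Nfkb2 and Nfkbia higher, Nfkbid lower), where 31% of all tested genes did not overlap. An unadjusted p under 0.05 was reached by 3 of the 10 (Rel, Nfkbia and Nfkbid) and by 22.9% of all tested genes. These genes were examined with the fall of Nfkbid already known, so the counts describe the family and do not test it.

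The call for Nfkbid depended on which library was left out. Without vehicle 1, 2 or 3 or blebbistatin 3 its adjusted p by limma was 0.117, 0.112, 0.0869 and 0.118, and without blebbistatin 1 or 2 it was 0.0417 and 0.016, while its log2 fold change stayed between -0.71 and -0.59 over these 6 fits.

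Nfkbid lies on chromosome 7, 30421732 to 30428746 on the plus strand in GRCm38, and is protein-coding. No exon of another gene overlaps its exons in GENCODE M21. The deposited mean read depth over the gene was 46.5, 46.9 and 45.8 with vehicle and 27.2, 32.3 and 29.9 with blebbistatin. These depths separated the groups as the TPM values did, but both come from the same reads, so this is not separate evidence. Of 4 other tested genes within 50 kb, 0 passed by limma, and 2, Aplp1 and Tyrobp, had an unadjusted p under 0.05. Hcst, an adaptor of activating receptors, was at 22.4 ± 3.69 and 26.9 ± 3.05 TPM. Aplp1 was at 3.50 ± 0.588 and 1.64 ± 0.380 TPM (adjusted p = 0.0703 by limma), Tyrobp at 1.19 ± 0.222 and 2.51 ± 0.612 TPM (adjusted p = 0.102 by limma) and Nphs1 at 2.61 ± 0.152 and 2.49 ± 0.457 TPM.

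Over the 6 libraries, the 5 genes whose log2(TPM + 1) followed Nfkbid most closely among 9345 candidates were Unkl, Slbp, Cdca7, Mrps22 and Pusl1, with Pearson correlations of 0.995 to 0.996. Unkl averaged 23.1 TPM in the vehicle and 17.3 TPM in the blebbistatin libraries, and Pusl1 52.1 and 36.9 TPM. Both were called lower (adjusted p = 0.0472 and 0.0421 by limma). Slbp, which binds histone messenger RNA, averaged 178 and 149 TPM, Cdca7, a cell cycle gene, 115 and 103 TPM, and Mrps22 61.0 and 52.4 TPM. Slbp, Cdca7 and Mrps22 did not pass (adjusted p = 0.0578, 0.135 and 0.0985 by limma). The 6 points share their 2 groups and their libraries, so these values are a description.

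The other atypical IkappaB member, Nfkbiz (IkappaB zeta), which works as a nuclear coactivator at secondary response genes, did not pass. It was at 16.0, 14.6 and 16.9 TPM with vehicle and 15.5, 13.6 and 15.6 TPM with blebbistatin. The groups overlapped, and the log2 fold change was -0.08 with a 95% interval of -0.30 to 0.13. Bcl3, a further atypical family member outside the 10 genes, was at 16.5, 18.0 and 15.8 TPM with vehicle and 10.9, 18.1 and 12.9 TPM with blebbistatin (adjusted p = 0.359 by limma).

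The classical inhibitors went in different directions, and 0 of 3 passed by limma, with 1 of them, Nfkbia, at an unadjusted p under 0.05. Nfkbia (IkappaB alpha), the fast feedback inhibitor that NF-kappaB itself induces, was at 49.4, 47.4 and 53.1 TPM with vehicle and 54.3, 73.4 and 56.7 TPM with blebbistatin. All blebbistatin values lay above the vehicle values, but replicates 1 and 3 lay close to the highest vehicle library and replicate 2 stood apart. The log2 fold change was 0.28 (95% interval 0.01 to 0.56, unadjusted p = 0.0453 and adjusted p = 0.209 by limma), and it was 0.15 without blebbistatin 2.

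Nfkbib (IkappaB beta), which binds NF-kappaB dimers with slower turnover, was the member with the widest spread. It was at 61.1, 60.1 and 56.1 TPM with vehicle and 29.8, 63.7 and 46.4 TPM with blebbistatin. Replicate 2 lay above every vehicle library and replicate 1 well below every vehicle library, so the groups overlapped. The log2 fold change of -0.40 had a 95% interval of -0.96 to 0.16, and leaving out blebbistatin 1 or 2 gave -0.12 or -0.65, neither past the threshold (adjusted p = 0.654 and 0.0682 by limma). Its exons overlap those of Sirt2 and Ccer2 on the opposite strand over 16.4% of their length. The library kit does not mark strand, so reads there cannot be told apart. Sirt2 was at 38.0 ± 1.72 and 36.3 ± 3.48 TPM and Ccer2 was listed at 0 in every library except blebbistatin 2.

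Nfkbie (IkappaB epsilon), an inhibitor with delayed induction, was at 15.2, 12.7 and 14.4 TPM with vehicle and 14.1, 15.8 and 15.7 TPM with blebbistatin. The groups overlapped and the log2 fold change was 0.10 (95% interval -0.12 to 0.32).

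Among the subunits 0 of 5 passed by limma, with Rel alone at an unadjusted p under 0.05. Rel (c-Rel), the subunit most tied to lymphocyte activation, was at 13.6, 13.99 and 13.7 TPM with vehicle and 19.2, 16.3 and 16.3 TPM with blebbistatin. Every blebbistatin value lay above every vehicle value, and the vehicle values differed by less than 1 TPM. The log2 fold change was 0.31 (SE 0.09, 95% interval 0.10 to 0.51, unadjusted p = 0.0095 and adjusted p = 0.119 by limma). Rel has a single annotated transcript of 7466 bases on chromosome 11, and its value does not depend on how reads were split between transcripts.

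Nfkb2, whose precursor yields the subunit of the alternative pathway, was at 62.2, 63.5 and 62.9 TPM with vehicle and 63.8, 79.9 and 73.9 TPM with blebbistatin. The groups did not overlap, although blebbistatin 1 lay within 1 TPM of the highest vehicle library. The log2 fold change was 0.20 (95% interval -0.003 to 0.40, adjusted p = 0.223 by limma). Exons of Psd and AC114539.1 on the opposite strand cover 18.1% of its exon length, and Psd was at 3.84 ± 0.0515 and 4.03 ± 0.529 TPM.

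Relb, the partner of that subunit in the alternative pathway, was at 10.7, 8.82 and 11.6 TPM with vehicle and 9.42, 13.2 and 10.4 TPM with blebbistatin, so the groups overlapped (95% interval of the log2 fold change -0.27 to 0.42). Rela, the main transactivating subunit, was at 53.2, 50.1 and 48.7 TPM with vehicle and 46.3, 45.4 and 50.04 TPM with blebbistatin, with an interval of -0.25 to 0.06. Nfkb1, whose precursor yields its usual partner and also has inhibitory ankyrin repeats, was at 265.5, 255 and 264 TPM with vehicle and 231, 257 and 239 TPM with blebbistatin. The Nfkb1 groups overlapped through blebbistatin 2 alone, and its interval was -0.24 to 0.02.

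**Figure D2:**
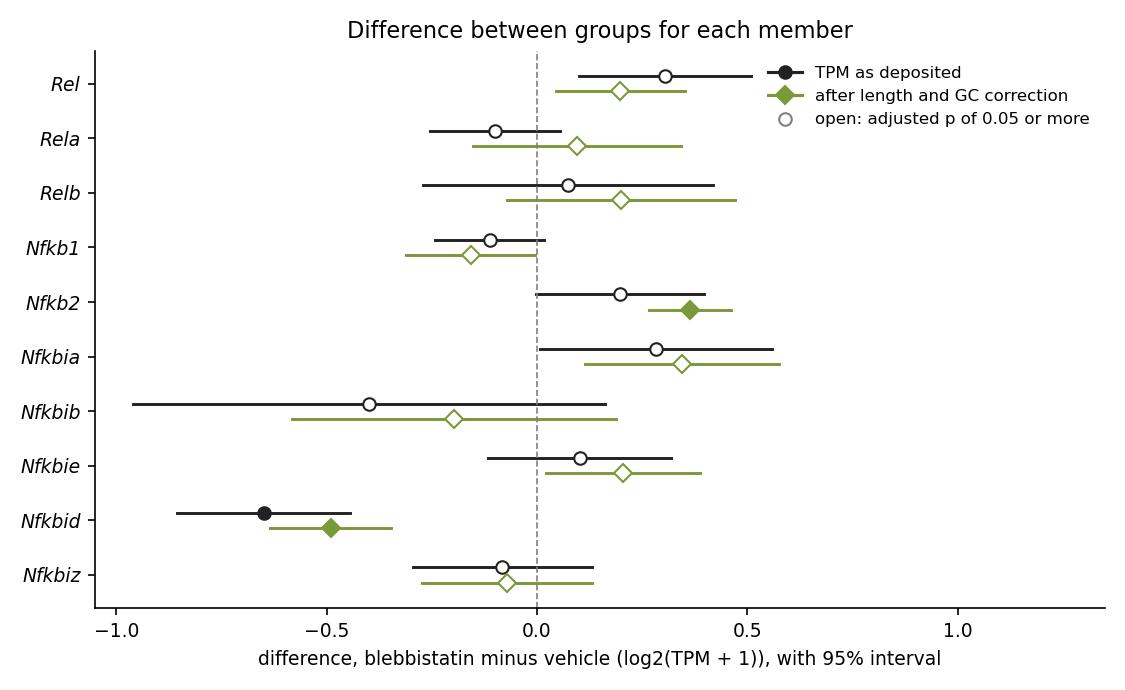
Difference between blebbistatin and vehicle in log2(TPM + 1) (horizontal axis) for the 10 genes, with 95% intervals, from the deposited TPM (black circles) and after each library was corrected for the length and GC content of transcripts (green diamonds). Filled symbols passed an adjusted p of 0.05, which Nfkbid did in both and Nfkb2 after the correction.

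The blebbistatin libraries had a shared order. In 7 of the 10 genes (Relb, Nfkb1, Nfkb2, Nfkbia, Nfkbib, Nfkbie and Nfkbid) replicate 1 was the lowest and replicate 2 the highest of the blebbistatin libraries, an order seen in 23.2% of all tested genes. Rel had the opposite extreme, with replicate 1 the highest. Over all tested genes, the difference between blebbistatin 1 and 2 varied with the base composition of transcripts. Among the 3329 tested genes with a GC content of 54.2% or more in their longest transcript, which include Rela, Relb, Nfkb2, Nfkbib, Nfkbie and Nfkbid, the median log2 difference between blebbistatin 1 and 2 was -0.23. Among the 3330 genes of 44.6% or less, which include Rel at 42.5%, it was 0.20, while between vehicle 1 and 2 the same medians were -0.002 and -0.03.

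Correcting each library for the length and GC content of its transcripts, an alternative chosen after seeing the data, left Nfkbid lower at -0.49 (95% interval -0.63 to -0.35, adjusted p = 0.0129 by limma). After it Nfkb2 was called higher as well, at 0.36 (0.27 to 0.46, adjusted p = 0.0115 by limma). Calls also rose over all genes, to 472 of 13317 tested genes, 371 of them higher, beside 244 of 13372 without the correction. The Nfkbib difference moved from -0.40 to -0.20. Rel moved from 0.31 to 0.20 and Nfkbia from 0.28 to 0.34, and neither passed (adjusted p = 0.136 and 0.103 by limma). The sign of Rela turned, from -0.10 to 0.10, with intervals that include 0 in both fits.

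TPM is scaled by transcript length, and levels are set beside each other on that scale here, though coverage gave another order (below). With vehicle the order of mean TPM was Nfkb1 (261.5), Nfkb2 (62.9), Nfkbib (59.1), Rela (50.7), Nfkbia (49.98), Nfkbid (27.1), Nfkbiz (15.8), Nfkbie (14.1), Rel (13.8) and Relb (10.4). The ranges of neighbours overlapped for Rela and Nfkbia, for Nfkbiz and Nfkbie and for Nfkbie and Rel, and were separate elsewhere in this order. With blebbistatin Nfkbid dropped from place 6 to place 7, and its range overlapped those of Rel above it and Nfkbie below it. Nfkbid held 16.3 ± 0.872% of the summed TPM of the 5 IkappaB genes with vehicle and 11.02 ± 0.955% with blebbistatin. Nfkbia held 30.1 ± 1.65% and 39.8 ± 2.28%. For the IkappaB genes, classical and atypical together, the summed TPM was 0.416 ± 0.00211 times that of the subunits with vehicle. With blebbistatin it was 0.396 ± 0.0509 times. By the deposited mean read depth, on the same scale, this ratio was 0.647 ± 0.0153 and 0.615 ± 0.0850.

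The order of levels, and with it the place of Nfkb1 at the top, depended on the measure. The deposited tables also give a mean read depth (coverage), and for Rel, Rela, Nfkbia and Nfkbie coverage and TPM gave the same level in each library. For Nfkb1 the TPM was 4.43 to 4.79 times the level that its coverage gave, for Nfkbiz 4.05 to 4.44 times, for Relb 1.71 to 2.23 times, for Nfkbib 1.65 to 1.73 times, for Nfkbid 1.55 to 1.63 times and for Nfkb2 1.07 times. By coverage Nfkb1 stood at 55.8 with vehicle on the TPM scale, beside 58.7 for Nfkb2 and 50.7 for Rela. Its share of the 5 subunits was 30.3 ± 0.150% by coverage and 65.5 ± 0.340% by TPM. Nfkbiz, at place 7 by TPM with vehicle, was the lowest member by coverage, at 3.71. With blebbistatin Nfkbid was at 10.7 by coverage, below Nfkbie at 15.2. GENCODE M21 lists 10 transcripts of Nfkb1, of 528 to 4149 bases, over 12061 exonic bases in all. How reads were split between transcripts in the authors' annotation is not known here. By coverage, which comes from the same reads, Nfkbid fell by 0.64 on the log2 scale (adjusted p = 0.0182 by limma). It was the 1 call among the 10 members, in a fit where 229 of 13494 tested genes were called, 49 of them lower. The log2 fold change of Nfkb1 was -0.07 by coverage and -0.11 by TPM, and that of Relb 0.17 and 0.07, none of them past the threshold.

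**Figure D3:**
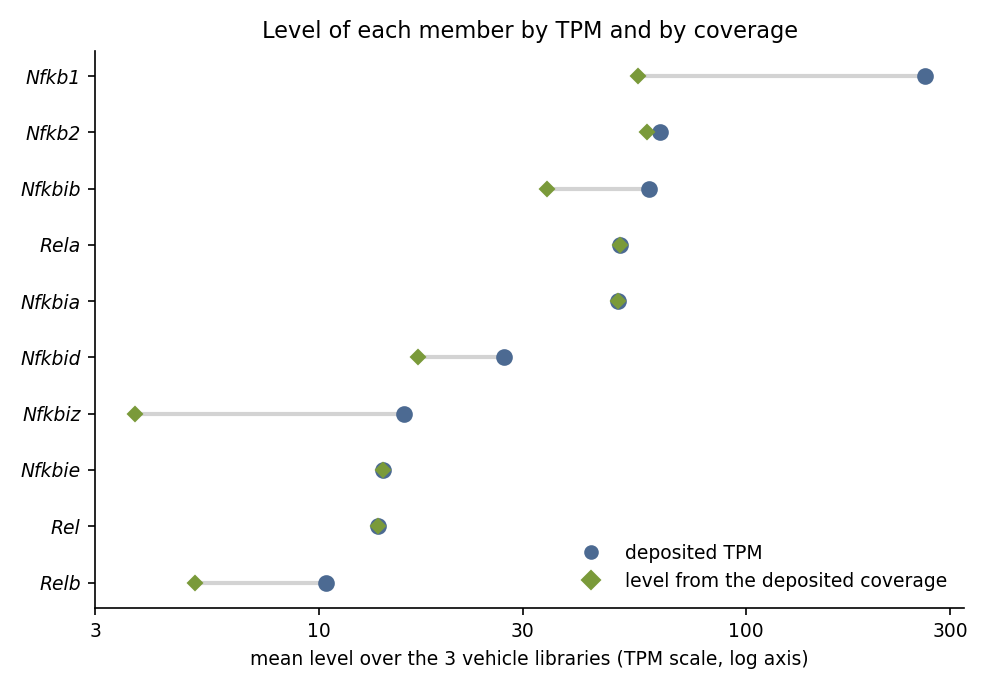
Mean level over the 3 vehicle libraries (horizontal log axis, TPM scale) of each gene by the deposited TPM (blue circles) and by the deposited coverage (green diamonds). The measures coincide for Rel, Rela, Nfkbia and Nfkbie and lie far apart for Nfkb1 (261.5 and 55.8) and Nfkbiz (15.8 and 3.71).

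The rest of the pathway was described through 7 lists of 113 genes, of which 108 were tested. Of these 9 rose and 0 fell, so 8.33% were called. Over all tested genes 1.82% were called, 1.4% higher and 0.426% lower. The lists were chosen with earlier results of these data known. The median log2 fold change of the 108 was 0.04, beside 0.03 over all tested genes. By limma, 40 of the 108 had an unadjusted p under 0.05, beside 22.9% of all tested genes. Without blebbistatin 2, where 8.19% of all genes were called, 18 of the 108 were called, 13 higher and 5 lower (Tradd, Rbck1, Nfkbil1, Ltb and Junb). An unadjusted p under 0.05 was then reached by 53 of the 108 and by 30% of all tested genes. Without vehicle 1, 2 or 3 or blebbistatin 1 or 3 the calls by limma numbered 1, 0, 0, 6 and 0, beside 0.0971%, 0.0822%, 0.0448%, 0.9% and 0.0225% of all tested genes. In these fits 26, 29, 28, 34 and 28 of the 108 had an unadjusted p under 0.05, beside 16%, 16.2%, 16%, 19.6% and 16.2% of all tested genes.

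Among 12 IkappaB kinase genes and their partners 1 rose and 0 fell, with a median of 0.08. Ikbke, the inducible noncanonical kinase, was at 56.9, 55.1 and 58.0 TPM with vehicle and 78.1, 78.1 and 73.7 TPM with blebbistatin (log2 fold change 0.43, adjusted p = 0.0233 by limma). Chuk, the catalytic kinase IKK alpha and the member of this list with the highest level, was at 68.7 ± 3.87 and 74.3 ± 6.89 TPM. In the T cell receptor arm, 0 of 9 genes passed by limma and 1, Cd28, had an unadjusted p under 0.05, with a median of 0.06. Vav1, an exchange factor, was at 103 ± 2.55 and 104 ± 4.6 TPM and Csnk1a1, a kinase, at 232 ± 6.98 and 218.5 ± 17.1 TPM.

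Of 13 adaptor genes of TNF receptor signalling 1 rose and 0 fell, with a median of -0.07. Birc3, a ubiquitin ligase that restrains the alternative pathway, rose from 42.9 ± 0.240 to 55.5 ± 3.46 TPM (adjusted p = 0.0454 by limma). Traf1, an adaptor, was at 71.7 ± 5.58 and 90.2 ± 1.88 TPM (adjusted p = 0.0651 by limma), and Rbck1, a subunit of the linear ubiquitin ligase, at 198 ± 1.97 and 165 ± 25.1 TPM (adjusted p = 0.182 by limma). For the ubiquitin ligase that marks IkappaB for destruction, 0 of 7 genes passed by limma and 1, Skp1a, had an unadjusted p under 0.05, at 211 ± 10.99 and 243 ± 17.2 TPM. Nedd8, which activates that ligase, was at 347 ± 5.09 and 368.5 ± 11.9 TPM, and the median of the 7 genes was 0.04.

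Of 18 brakes and deubiquitinases 1 rose and 0 fell, with a median of 0.04. Tnip3, a partner of the deubiquitinase A20, rose from 4.92, 4.91 and 5.51 TPM to 9.47, 7.57 and 9.42 TPM (adjusted p = 0.0426 by limma). Otulin was at 91.6 ± 7.40 and 93.1 ± 5.0 TPM and Usp7 at 129.5 ± 3.49 and 137.5 ± 10.96 TPM, both deubiquitinases.

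Of 22 receptor and ligand genes 18 were tested, 2 rose and 0 fell, with a median of 0.04. Tnfsf4, the OX40 ligand, rose from 22.0, 20.1 and 17.1 TPM to 40.8, 36.7 and 38.7 TPM (log2 fold change 0.94, adjusted p = 0.0156 by limma), and Tnfsf8, the CD30 ligand, from 47.3 ± 0.962 to 65.8 ± 5.51 TPM. Ltb, the membrane partner of lymphotoxin and a ligand of the alternative pathway, was at 375, 377 and 372 TPM with vehicle and 224.5, 367 and 256 TPM with blebbistatin. Its blebbistatin values spread in the same order as those of Nfkbib, and it did not pass (adjusted p = 0.181 by limma), while without blebbistatin 2 it was called lower (-0.64, adjusted p = 0.0115 by limma). Tnfrsf9, the costimulatory receptor 4-1BB, was at 332 ± 12.8 and 333 ± 17.3 TPM.

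Of 32 genes listed as NF-kappaB targets 31 were tested, 4 rose and 0 fell, with a median of 0.08. Fas, a death receptor that is also a p53 target, rose from 32.2 ± 1.21 to 59.4 ± 6.94 TPM, and Cd83, a surface protein of activated lymphocytes, from 11.9 ± 0.974 to 18.7 ± 1.23 TPM. Cd69, an early activation marker, rose from 91.2 ± 2.29 to 129 ± 16.5 TPM. Bcl2a1b, a survival gene whose close paralogs make its value uncertain, rose from 34.5 ± 0.744 to 51.2 ± 3.84 TPM. Adjusted p over these 4 genes by limma was 0.0158 to 0.0488. Il2ra, the interleukin 2 receptor alpha chain, was at 838 ± 9.62 and 851 ± 79.9 TPM and Psmb9, an immunoproteasome subunit, at 225 ± 5.88 and 225 ± 26.6 TPM. These rises and the fall of Nfkbid were seen in the same libraries.

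**Figure D4:**
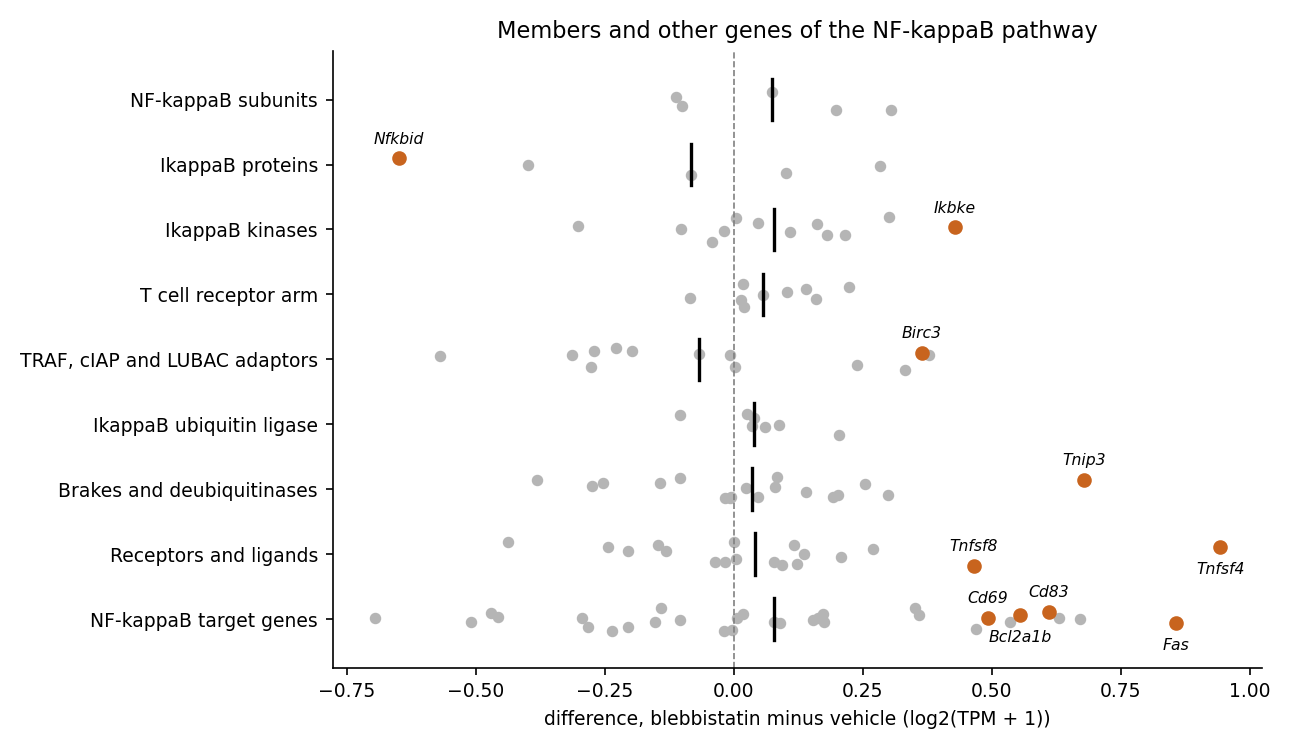
Difference between blebbistatin and vehicle in log2(TPM + 1) (horizontal axis) for each tested gene of the 2 member groups and the 7 pathway lists, with black lines at list medians and orange points for genes past an adjusted p of 0.05. Nfkbid at -0.65 is the one orange point below 0, and 9 pathway genes lie above 0.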

How the data were processed

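RNA of 6 libraries (3 per group by the labels) was extracted with TRIzol and sequenced from TruSeq RNA v2 libraries, per the labels' protocols. Per the submitters' processing notes, the tools were StringTie 1.3.4, HISAT2 2.1.0 and DESeq2 1.22.2 and the build mm10, without their order or roles. The TPM and FPKM values and the unnormalized coverage signal were made by the authors, per the file headers. TPM sums to 1000000 per library. Implied depth comes from coverage divided by FPKM in genes with 1 transcript, taking 300 aligned bases, the commonest number at low level, as 1 fragment.

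The groups were compared by limma 3.58.1 (R 4.3.3) with a mean-variance trend on log2(TPM + 1), over 13372 genes whose mean reached 1 TPM, adjusted by Benjamini-Hochberg at 0.05. TPM holds no counts, so no count test was run. The members and pathway lists were chosen with earlier results of these data known. Besides the members, the text names pathway genes past the threshold, the 2 of highest level in each list, and the 5 closest to a called member by correlation among genes of at least 5 TPM, leaving out predicted genes. Bcl3, genes beside or overlapping a member and the markers were added for context. The levels by coverage divide coverage by each library's ratio of coverage to FPKM. Annotation came from GENCODE M21. Figures were drawn with matplotlib 3.10.9.

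Alternatives were pseudocounts of 0.1 and 5, no minimum or 5 TPM, FPKM, median-ratio and quantile scaling, limma without trend or robust, a replicate block and the omission of each library in turn. Chosen after seeing the data were coverage, protein-coding genes alone, and a loess fit of each library on GC content and length of transcripts, which was subtracted.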

Additional observations from a re-analysis of the deposited data

How the results depend on the processing

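Nfkbid kept its direction under all 19 alternatives, with log2 fold changes from -0.71 to -0.49, and passed in 13 of them. The call did not hold without a minimum level (adjusted p = 0.0595 by limma), where 24825 genes were tested, with the replicate block (adjusted p = 0.105) and without any of 4 single libraries. Calls numbered 49 over all genes, 0 members and 3 pathway genes with no minimum level. With the replicate block they numbered 0, 0 and 0 by limma, with 2628 genes, 2 members and 33 pathway genes at an unadjusted p under 0.05. Replicate numbers do not pair the libraries by the labels, and deviations of same-numbered libraries had correlations of 0.011, -0.037 and -0.034. The length and GC correction gave 472 calls over 13317 tested genes and 2 among the members, and dropping the trend gave 160 over all genes. Leaving out each library gave 3 to 1092 calls over all genes, 0 to 1 members and 0 to 18 pathway genes. The lowest came without blebbistatin 3 and the highest without blebbistatin 2. The cause was not tested. The Nfkb1 share of the summed subunits was 30.3% by coverage in place of 65.5%. Signs turned for Rela after the length and GC correction (0.10) and for Relb, which ran from -0.054 to 0.17 over the fits without 1 library and was below 0 without vehicle 2 (-0.03) or blebbistatin 2, and neither passed in any fit. Nfkb2 was called in that correction alone. With 3 libraries a group, intervals of most members reach differences of 0.3 or more on the log2 scale.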
